A study of Mus musculus with 10 samples.

Results

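Amplified total RNA of the contralateral kidney was compared with amplified total RNA of the normal kidney on 4 of the series' 10 arrays. The contralateral kidney is the unclamped kidney of a mouse whose left kidney was made ischaemic. The members were taken by their titles: 2 arrays of contralateral kidney and 2 of normal untreated kidney, each pair titled as biological replicates 1 and 2. All mice were C57/BLACK6 males of 7 weeks and about 20 g. In the contralateral group the vessels of the left kidney were clamped for 45 min under ether, and the kidney of the other side was taken 3 h after reperfusion. The normal group had no clamp, and its kidneys were taken 2 h after the first injection. Mice of both groups were injected with 4-thiouridine (s4U, a uridine analogue that enters new RNA) at 200 µM together with 34 µCi of 3H-cytidine in 1 ml. The contralateral group was injected 1 h and 2 h after reperfusion and the normal group at 0 h and 1 h. No sham operation is described, so clamp, anaesthesia, surgery and the hour of sampling cannot be told apart in any difference given here.

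The contralateral kidney is exposed to the circulation of an injured animal without having been ischaemic itself. Stress hormones and cytokines reach it through the blood. Adrenal glucocorticoids act through a nuclear receptor that switches on genes of fuel use and feedback control. Interleukin-6 type cytokines act through STAT3 on the acute phase genes, and inflammatory cytokines act through NF-kB on chemokines and adhesion molecules. The kidney cortex is, beside the liver, a tissue that makes glucose, and many hormone-responsive metabolic genes are active in the proximal tubule. In bulk RNA of a whole kidney, fewer cells of a type and less RNA per cell cannot be told apart.

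The array carried 22626 probe sets beside 64 controls, and 13575 were bright enough to be tested. Values are log2(intensity + 11.2) after quantile normalization of the 4 arrays, and a value after ± is limma's standard error. Within groups the arrays were close, with a Pearson correlation over probe sets of 0.989 between the normal arrays and 0.979 between the contralateral arrays, against 0.957 to 0.964 between groups. The median SD of a probe set was 0.0944 log2 in the normal and 0.139 in the contralateral group. The median deposited intensity was 41.2 and 43.5 on the normal arrays and 26.6 and 49.8 on the contralateral arrays. The 3 control probe sets for 18S ribosomal RNA differed by group: they lay between 774.9 and 933.5 on the normal arrays and between 79.7 and 207.6 on the contralateral arrays. Relative to the array's median intensity this was 22.5 and 17.9 in normal and 3.1 and 3.61 in contralateral kidney. The 3'/5' intensity ratio, which is high where RNA or its copies are short, overlapped between groups: Gapdh gave 5.29 and 4.21 in normal and 6.23 and 4.39 in contralateral kidney. The 18S signal moves with the groups in every comparison of these 4 arrays, and its part in the results below was not tested.

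**Figure D1:**
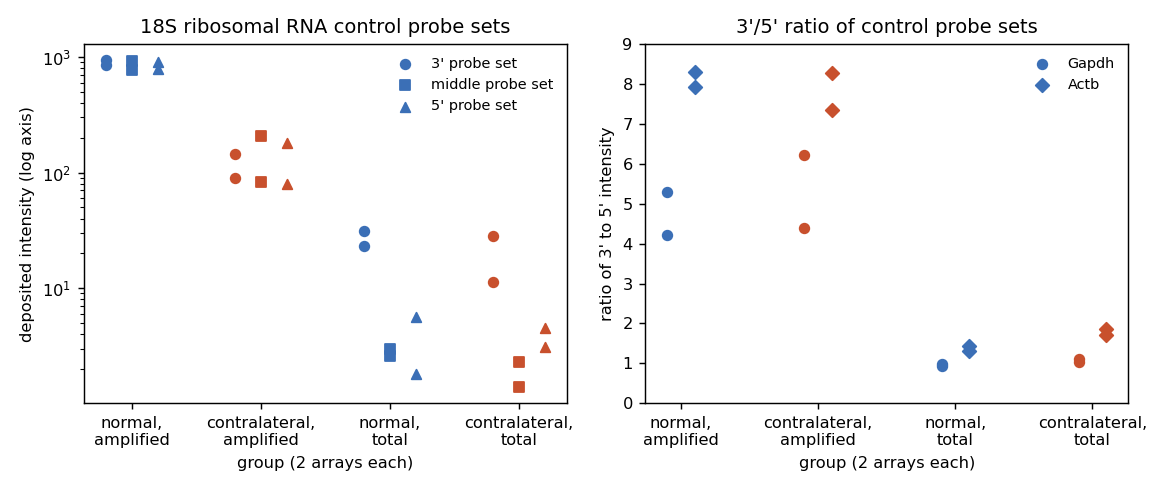
Control probe sets on the arrays of amplified total and total RNA, 2 arrays per group. The left panel shows the deposited intensity of the 3 probe sets for 18S ribosomal RNA on a log axis, 774.9 to 933.5 in normal and 79.7 to 207.6 in contralateral amplified RNA; the right panel shows the 3'/5' intensity ratio of Gapdh and Actb, which is higher in amplified than in total RNA and overlaps between kidneys in amplified RNA.

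In contralateral kidney 17 of 28 tested glucocorticoid-responsive genes, 8 of 13 acute phase genes and 9 of 26 immediate early and stress genes rose. Of all genes tested 3.29% rose. The gene lists were chosen with earlier results of these data known, so their counts are a description. The largest falls were those of the nuclear RNA Malat1 and the bicarbonate transporter Slc4a4. Of the 13575 probe sets tested, 992 passed an adjusted p of 0.05 (7.31%), 366 of them higher (2.7%) and 626 lower (4.61%) in contralateral kidney. Counted by gene, with the brightest probe set standing for the gene, 518 of 8357 genes passed (6.2%): 275 rose (3.29%) and 243 fell (2.91%). The median change was 0.74 log2 among the risen genes and -0.87 among the fallen genes, against 0.05 over all genes tested. A change of at least 2-fold was reached by 51 risen and 86 fallen genes. At an unadjusted p of 0.05 in limma 1865 of the 8357 genes passed, 1128 higher and 737 lower. No called gene had overlapping groups, but 54.5% of all tested probe sets did not overlap either, so separation of 2 from 2 arrays says little without the size of the change. The number of calls depended strongly on which array was left out. A group left with 1 array is given the spread of the other group. Leaving out a normal array thus leaves the wider spread of the contralateral arrays, and leaving out a contralateral array the narrower spread of the normal arrays.

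**Figure D2:**
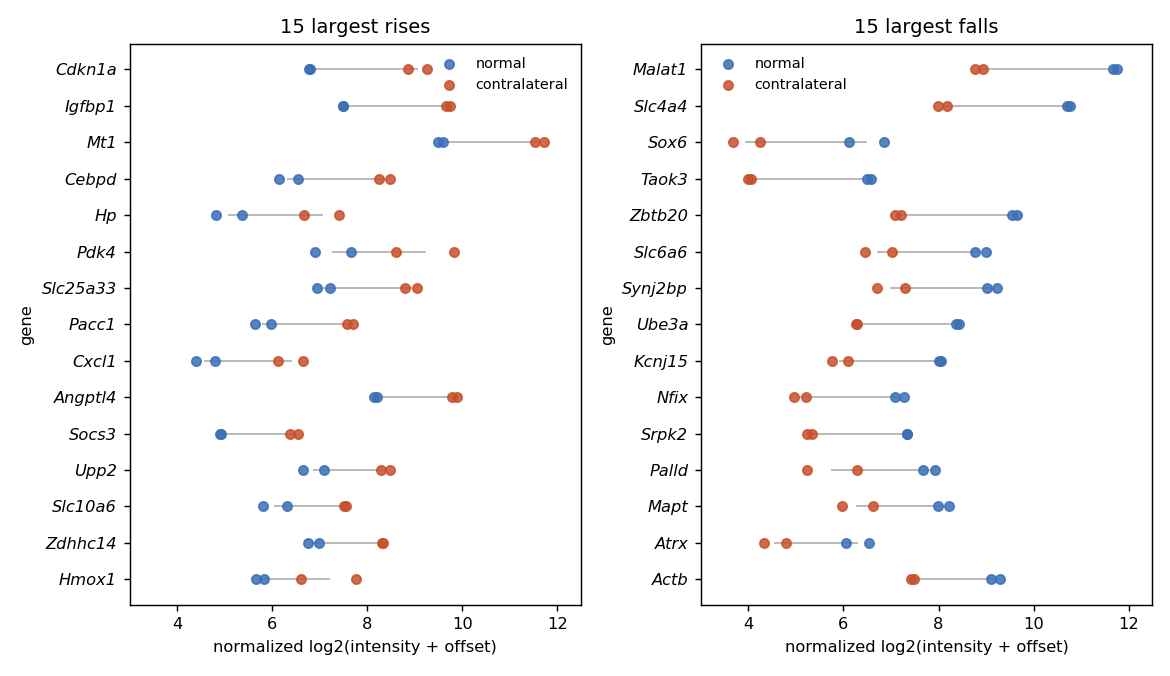
Normalized log2 values of the 15 genes with the largest rises and the 15 with the largest falls among those that passed the test, with 1 point per array (2 normal, 2 contralateral) and a grey line joining the group means. The groups do not overlap for any of the 30 genes, which the selection required, and the arrays of a group lie farthest apart for Pdk4, Hmox1 and Palld.

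The glucocorticoid-responsive list held the most rises: 17 of 28 tested members rose and 0 fell, with a median difference of 0.76 log2. Of all genes tested 3.29% rose. With no filter on brightness 10 of 30 members rose and 0 fell, where 100 of all 22626 probe sets rose. Cdkn1a, the cyclin-dependent kinase inhibitor p21, stood at 6.80 and 6.78 on the normal arrays and at 8.85 and 9.26 on the contralateral arrays. This was the largest rise of any gene, 2.27 ± 0.17 (4.82-fold, adjusted p = 0.000833). Igfbp1, which binds insulin-like growth factors and is induced in fasting and by stress hormones, stood at 7.48 and 7.49 in normal and at 9.75 and 9.66 in contralateral kidney, a rise of 2.22 ± 0.12 (adjusted p = 0.000359). For both genes the arrays of a group lay close together beside the gap between groups. Angptl4, a secreted inhibitor of lipoprotein lipase, went from 8.21 and 8.15 to 9.89 and 9.78, a rise of 1.66 ± 0.12. Slc10a6, a steroid sulfate transporter, rose by 1.47 ± 0.19, Ddit4, an inhibitor of mTOR signalling, by 1.25 ± 0.13, Gadd45g by 0.90 ± 0.15 and the phosphatase Dusp1 by 0.76 ± 0.14. Well-known targets of the receptor were not all among the calls. Tsc22d3 (GILZ) differed by 1.06 ± 0.31 (adjusted p = 0.0861), Zbtb16 by 0.75 ± 0.20 (adjusted p = 0.0646), Per1 by 0.20 ± 0.25 and Sgk1 by 0.09 ± 0.24. Fewer members of the list passed with either normal array left out, as did fewer of all probe sets. The median of the list was then 0.84 without normal replicate 1 and 0.68 without normal replicate 2.

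Genes of fasting and fat use overlapped with that list. Of 21 tested members of the fasting, FOXO and PPARA list 6 rose and 1 fell (median 0.21). Over all genes tested 3.29% rose and 2.91% fell. Igfbp1, Angptl4, Pdk4 and Lpin1 are also in the glucocorticoid list. Pdk4, the kinase that shuts off pyruvate dehydrogenase, was at 7.65 and 6.90 in normal and at 9.82 and 8.61 in contralateral kidney, a rise of 1.94 ± 0.38 (adjusted p = 0.0252). Its groups were separate, but each group's arrays differed by more than for most genes. Slc25a33, a mitochondrial pyrimidine nucleotide carrier, went from 6.94 and 7.22 to 9.05 and 8.79, a rise of 1.84 ± 0.16. G6pc, the catalytic subunit of glucose-6-phosphatase, rose by 1.02 ± 0.12 (adjusted p = 0.00462), whereas Pck1, the other key enzyme of glucose synthesis, differed by 0.27 ± 0.10 (adjusted p = 0.163). Ppara, the fatty acid receptor itself, fell from 5.89 and 5.88 to 4.86 and 4.86 (-1.03 ± 0.19, adjusted p = 0.0217). Its direction was opposite to that of Pdk4 and Angptl4, which it is known to activate. The brightest probe set of Lpin1 rose by 0.76 ± 0.14, while another probe set of the gene fell by 0.85. Without normal replicate 1 or 2 the list had 3 rises and 0 falls.

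Metallothioneins, small zinc-binding proteins induced by glucocorticoids and metal, were among the largest changes. Mt1 stood at 9.60 and 9.49 in normal and at 11.53 and 11.72 in contralateral kidney, a rise of 2.08 ± 0.11 (4.24-fold, adjusted p = 0.000322). Mt2 went from 10.10 and 9.76 to 11.27 and 11.21, a rise of 1.31 ± 0.13 (adjusted p = 0.00201). Slc39a14, a zinc importer, rose by 0.67 ± 0.16. The zinc exporter Slc30a1 (0.12 ± 0.22) and the metal-sensing factor Mtf1 (0.08 ± 0.21) did not pass, so 3 of 5 tested members of the list rose and 0 fell. Over all genes tested 3.29% rose and 2.91% fell. The Mt1 probe set carries the suffix for probes shared by several transcripts, so signal of related transcripts is not separable there. Mt1 and Mt2 lie side by side, and the 250 bases before their RefSeq start sites are shown because the 2 genes moved together. Capitals mark the core of the metal response element, TGCNCNC, searched on both strands (build GRCm38.p6, plus strand; Mt1 at chr8:94178839-94179088, Mt2 at chr8:94172368-94172617).
Mt1: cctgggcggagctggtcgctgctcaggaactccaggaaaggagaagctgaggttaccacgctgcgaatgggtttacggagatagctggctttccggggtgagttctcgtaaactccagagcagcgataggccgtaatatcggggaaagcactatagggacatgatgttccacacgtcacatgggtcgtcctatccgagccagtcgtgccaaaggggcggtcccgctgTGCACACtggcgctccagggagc
Mt2: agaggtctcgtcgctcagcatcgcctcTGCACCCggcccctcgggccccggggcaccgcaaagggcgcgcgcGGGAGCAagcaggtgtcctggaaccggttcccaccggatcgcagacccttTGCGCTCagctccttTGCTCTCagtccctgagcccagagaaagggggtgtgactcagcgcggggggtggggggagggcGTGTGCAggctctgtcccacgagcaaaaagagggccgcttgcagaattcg
The window of Mt1 held 1 match and that of Mt2 held 5. Bases after the RefSeq start used here were not searched, so these counts do not cover the whole promoter of either gene. Among 32851 RefSeq windows of the same length, 44.4% held at least 1 match and 0.344% held at least 5. The match is one of letters and is no measured binding site.

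Acute phase genes, the liver-type response to interleukin-6 that the kidney also mounts, rose in 8 of 13 tested members, with 0 falls and a median difference of 1.04. Of all genes tested 3.29% rose. With no filter on brightness 6 of 27 members rose and 0 fell (median 0.44), where 100 of all 22626 probe sets rose. Cebpd, a transcription factor of the response, stood at 6.53 and 6.13 in normal and at 8.47 and 8.24 in contralateral kidney, a rise of 2.02 ± 0.18 (adjusted p = 0.0015). Its other tested probe set differed by 0.60 ± 0.29 and did not pass (adjusted p = 0.25). Haptoglobin (Hp), which captures free haemoglobin, went from 5.36 and 4.82 to 6.67 and 7.41, a rise of 1.95 ± 0.28 (adjusted p = 0.00835). Socs3, the feedback inhibitor of STAT3 signalling, went from 4.92 and 4.91 to 6.54 and 6.37, a rise of 1.54 ± 0.18. All 3 genes were separate between groups, with the widest scatter in Hp. Further rises were those of the fibrinogen chain Fga (1.37 ± 0.16), the oncostatin M receptor Osmr (1.24 ± 0.17) and the metalloreductase Steap4 (1.20 ± 0.17). Stat3 itself (0.56 ± 0.15, adjusted p = 0.0712), Fgg (0.51 ± 0.17), Il6st (0.19 ± 0.12) and Cebpb (0.18 ± 0.13) did not pass. On the array but too dim to be tested were 14 members, among them Lcn2, Saa1, Saa2, Saa3 and Timp1. Leaving out either normal array left 1 called member of the list.

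Genes of the NF-kB list rose in 5 of 10 tested members, with 0 falls and a median of 0.59. Of all genes tested 3.29% rose. The filter takes the mean of all 4 arrays, so a dim gene can be tested through its contralateral level. With no filter on brightness 1 of 21 members rose and 0 fell (median 0.25), where 100 of all 22626 probe sets rose. The neutrophil chemokine Cxcl1 stood at 4.79 and 4.40 in normal and at 6.12 and 6.65 in contralateral kidney, a rise of 1.79 ± 0.25 (adjusted p = 0.00731). Smaller rises were those of Nfkbiz (1.14 ± 0.26), the adhesion molecule Icam1 (0.73 ± 0.16), the apoptosis inhibitor Birc3 (0.70 ± 0.16) and Nfkbia, the inhibitor of NF-kB (0.58 ± 0.13). Vcam1 differed by 0.15 ± 0.16 and did not pass. Ccl2, Cxcl2, Cxcl10, Il6, Il1b and Tnf were too dim to be tested. The calls of the list were lost with either normal array left out, where its median was 0.66 and 0.55. At an unadjusted p of 0.05 in limma on all 4 arrays 6 of 10 passed, where 1865 of all 8357 genes tested did.

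Of 26 tested immediate early and stress genes 9 rose and 0 fell, with a median of 0.44, where 3.29% of all genes tested rose. With no filter on brightness 2 of 34 members rose and 0 fell (median 0.43), where 100 of all 22626 probe sets rose. Fos, a subunit of the AP-1 factor, stood at 5.15 and 5.10 in normal and at 6.65 and 6.31 in contralateral kidney, a rise of 1.36 ± 0.19 (adjusted p = 0.00777). Egr1 rose by 0.80 ± 0.16, Jun by 0.73 ± 0.15, Ccn1 by 0.82 ± 0.20 and Btg2 by 0.61 ± 0.14. Ier2 (0.54 ± 0.20) and Klf6 (0.25 ± 0.17) did not pass, and Atf3, Fosb, Egr2 and Myc were too dim to be tested. The calls of the list were lost with either normal array left out, where its median was 0.44 and 0.50. At an unadjusted p of 0.05 in limma on all 4 arrays 15 of 26 passed, where 1865 of all 8357 genes tested did. Cxcl1 and Fos are textbook targets of the NF-kB and cyclic AMP pathways, and the 250 bases before their start sites are shown with the letters of such sites in capitals (build GRCm38.p6, plus strand; Cxcl1 at chr5:90890995-90891244, Fos at chr12:85473640-85473889).
Cxcl1: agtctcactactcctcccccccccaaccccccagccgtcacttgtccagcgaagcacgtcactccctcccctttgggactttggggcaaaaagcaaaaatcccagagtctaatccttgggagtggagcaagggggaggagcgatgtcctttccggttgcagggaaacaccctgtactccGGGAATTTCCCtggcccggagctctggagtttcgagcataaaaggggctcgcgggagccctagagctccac
Fos: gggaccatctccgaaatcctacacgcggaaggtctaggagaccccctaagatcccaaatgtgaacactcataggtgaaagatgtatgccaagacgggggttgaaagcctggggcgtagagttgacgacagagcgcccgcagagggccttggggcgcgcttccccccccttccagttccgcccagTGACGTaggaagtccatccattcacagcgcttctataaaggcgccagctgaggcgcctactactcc
The capitals in Cxcl1 mark matches to the NF-kB consensus, searched on both strands. The window held 2 matches, 1 on each strand, which overlap; of the 32851 windows 3.9% held at least 1 match and 0.831% at least 2. The capitals in Fos mark TGACGT, the core bound by cyclic AMP response element factors, with 1 match in this window and at least 1 on either strand in 6.47% of windows. These matches describe letters and not binding.

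Targets of p53 rose in 5 of 15 tested members, with 0 falls and a median of 0.14, where 3.29% of all genes tested rose. Besides Cdkn1a these were Trp53inp1 (1.34 ± 0.21), Sesn2 (1.10 ± 0.20), Sesn1 (1.06 ± 0.15) and Btg2. Mdm2, the ubiquitin ligase that p53 induces against itself, differed by 0.14 ± 0.16, and Ccng1, another standard target, by 0.06 ± 0.14; neither passed. Leaving out either normal array left 1 called member of this list. Sesn2 and Psat1 (1.01 ± 0.15), an enzyme of serine synthesis, were the 2 of 18 tested members of the ATF4 list that rose, while Atf4 (0.28 ± 0.12), Asns (0.65 ± 0.18) and Ddit3 (0.14 ± 0.19) did not pass. Hmox1, which degrades heme, was at 5.66 and 5.83 in normal and at 6.61 and 7.77 in contralateral kidney, a rise of 1.44 ± 0.33 (adjusted p = 0.0425) that rested more on replicate 2. Of 18 tested members of the NRF2 list 2 rose and 1 fell: Hmox1 and the factor's own gene Nfe2l2 (0.63 ± 0.13) rose, and Tkt, the transketolase of the pentose phosphate pathway, fell by -0.38 ± 0.09 (adjusted p = 0.0457). Nqo1 (-0.27 ± 0.16) and Gclc (0.11 ± 0.12), standard targets of the factor, did not pass. Without normal replicate 1 or 2 limma called 0 members of the ATF4 list (5 and 4 at an unadjusted p of 0.05) and 0 of the NRF2 list (4 and 3).

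Of 14 tested members of the tubular injury list 3 rose and 0 fell (median 0.30), where 3.29% of all genes tested rose. The 3 were Arg2, the mitochondrial arginase, by 1.34 ± 0.15, the TWEAK receptor Tnfrsf12a by 0.97 ± 0.18 and Lgals3 by 0.64 ± 0.14. Krt8 (0.46 ± 0.16), Krt18 (0.42 ± 0.15), Clu (0.25 ± 0.10) and Vim (0.16 ± 0.14) did not pass, and Havcr1 (KIM-1), the standard marker of injured proximal tubule, was too dim to be tested. Without normal replicate 1 or 2 limma called 0 members of the injury list (5 and 5 at an unadjusted p of 0.05), and with cyclic loess in place of quantile normalization 3 of 15 tested rose and 1 fell. The vitamin D enzymes moved in opposite directions. Cyp24a1, which inactivates the hormone, went from 8.90 and 9.04 to 10.02 and 10.05 (1.06 ± 0.11, adjusted p = 0.00305). Cyp27b1, which makes it, went from 7.47 and 7.01 to 5.85 and 6.35 (-1.14 ± 0.23, adjusted p = 0.0252). The other 14 tested members of the vitamin D, calcium and phosphate list, the receptor Vdr (0.18 ± 0.12) among them, did not pass. In limma 0 members of that list were called without normal replicate 1 or 2 (2 and 3 at an unadjusted p of 0.05).

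Further genes outside the lists complete the largest rises. Pacc1, a proton-activated chloride channel, went from 5.97 and 5.64 to 7.57 and 7.70 (1.82 ± 0.17), but its other tested probe set differed by -0.22 ± 0.16. Upp2, a uridine phosphorylase, went from 7.10 and 6.65 to 8.28 and 8.47 (1.5 ± 0.18), and its other probe set differed by 1.25 ± 0.32 (adjusted p = 0.0567). Zdhhc14, a palmitoyltransferase, rose by 1.46 ± 0.15, and 3 of its 5 other probe sets rose as well. The probe sets that rose all carry a suffix for probes that may match other transcripts. The only one without that suffix differed by 0.43 ± 0.20 (adjusted p = 0.254).

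**Figure D3:**
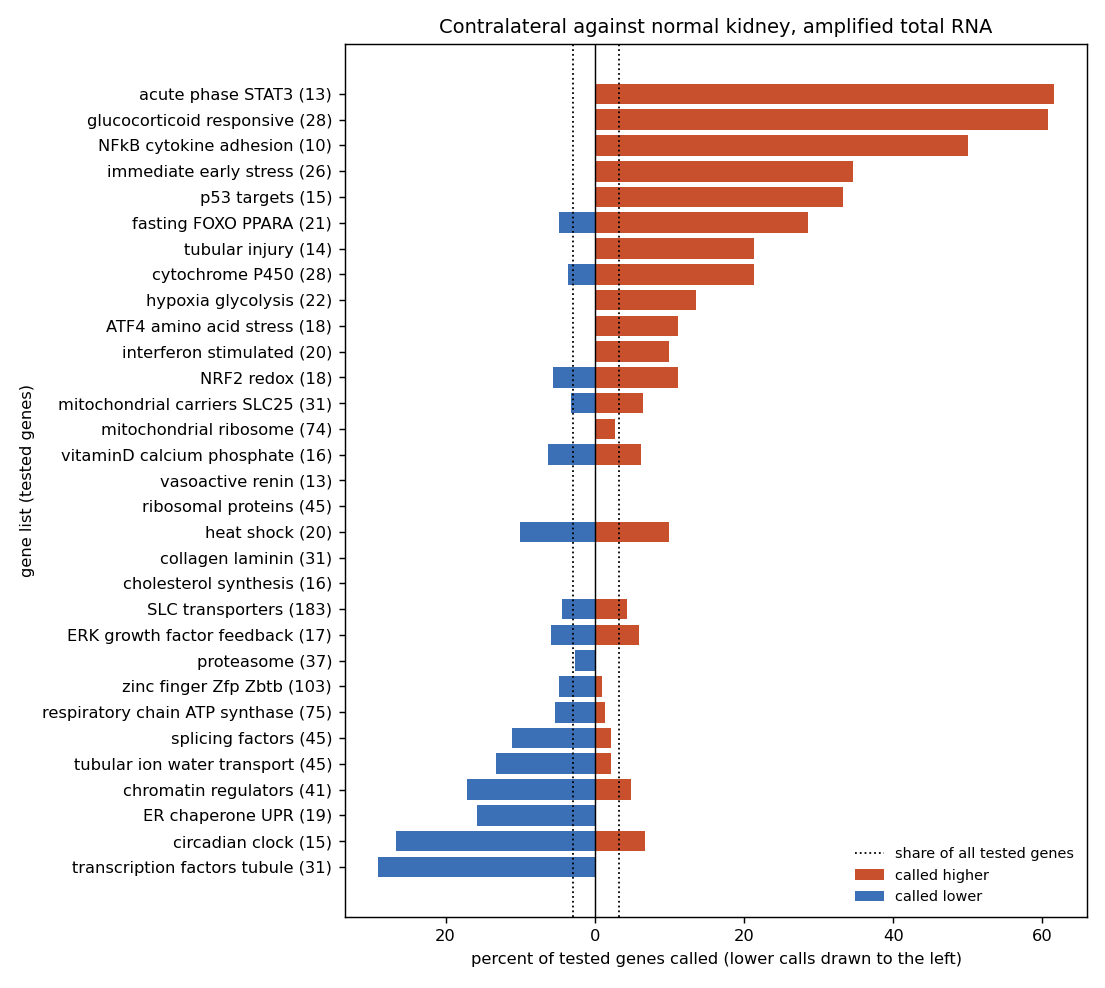
Percent of each gene list's tested genes called higher (red, to the right) or lower (blue, to the left) in contralateral kidney, for lists with at least 10 tested genes; the number tested stands in brackets. Dotted lines give the share of all 8357 tested genes, 3.29% higher and 2.91% lower; acute phase, glucocorticoid and NF-kB genes reach 50% or more higher, and tubule transcription factors 29.0% lower.

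Among the falls, Malat1, a long noncoding RNA retained in nuclear speckles, changed most. It stood at 11.67 and 11.76 in normal and at 8.76 and 8.94 in contralateral kidney, a fall of -2.87 ± 0.11 (7.30-fold, adjusted p = 9.19e-05). Of its 4 other tested probe sets 3 fell, by -2.34 ± 0.14, -2.60 ± 0.27 and -2.41 ± 0.21, and the other differed by -0.95 ± 0.28 (adjusted p = 0.0916). Malat1 was the only call among 8 tested long noncoding RNAs, and Neat1 (-0.03 ± 0.10) and Meg3 (-0.02 ± 0.20) did not pass. The fall was therefore seen by most probe sets of Malat1 and not by the other nuclear RNAs named.

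Transport genes of the tubule were among the largest falls, although most of the list did not pass. Slc4a4, the basolateral sodium bicarbonate cotransporter of the proximal tubule, stood at 10.77 and 10.70 in normal and at 8.0 and 8.18 in contralateral kidney, a fall of -2.64 ± 0.12 (adjusted p = 0.000192). A further probe set fell by -2.41 ± 0.14, and another differed by -0.29 ± 0.12 (adjusted p = 0.207), so 2 of 3 probe sets show the change. The taurine transporter Slc6a6 went from 8.76 and 8.99 to 6.44 and 7.02 (-2.14 ± 0.20), and the potassium channel Kcnj15 from 8.05 and 8.0 to 5.75 and 6.09 (-2.11 ± 0.17). Slc26a1, a sulfate transporter, fell by -1.49 ± 0.24, the dicarboxylate transporter Slc13a3 by -0.79 ± 0.11 and the glucose transporter Slc2a2 by -0.54 ± 0.13. Of 45 tested members 6 fell and 1 rose, the ubiquitin ligase Nedd4l (0.58 ± 0.13), with a median of -0.08. Over all genes tested 2.91% fell and 3.29% rose. The thick limb cotransporter Slc12a1 (-0.16 ± 0.11) and the phosphate transporter Slc34a1 (-0.09 ± 0.12) did not pass. Leaving out normal replicate 1 or 2 left 4 and 2 falls and 0 rises.

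Transcription factors of the tubule list fell in 9 of 31 tested members, with 0 rises, against a background of 2.91%. The median of the list was -0.06, so the falls were a minority of its members. Sox6 went from 6.86 and 6.11 to 3.67 and 4.24 (-2.52 ± 0.31), and Zbtb20, a zinc finger repressor, from 9.54 and 9.66 to 7.08 and 7.21 (-2.45 ± 0.13). The contralateral values of Sox6 lay near the floor set by the offset, and its fall ranged from -1.25 to -2.71 over the alternatives. It was bright enough in only 2 of the fits that leave out an array. Both other tested probe sets of Zbtb20 fell, by -1.64 ± 0.21 and -0.93 ± 0.18. Nfix went from 7.09 and 7.28 to 5.21 and 4.96 (-2.10 ± 0.18), and its relative Nfib fell by -1.28 ± 0.16. Tfap2b (-1.32 ± 0.22) and Zeb2 (-1.29 ± 0.27) also fell, while Hnf4a, the factor that defines proximal tubule cells, differed by 0.04 ± 0.10. With only probe sets above the 60th percentile of brightness tested, 2 members fell and 1 rose, and without normal replicate 1 or 2 the falls numbered 2 and 1.

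Regulators of chromatin and splicing held further falls. Atrx, a chromatin remodeller, went from 6.05 and 6.53 to 4.32 and 4.79 (-1.74 ± 0.26), and both of its other probe sets fell, by -1.03 ± 0.20 and -1.74 ± 0.27. Pbrm1 fell by -1.28 ± 0.18 and Bptf by -1.01 ± 0.14. Over all genes tested 2.91% fell and 3.29% rose. The chromatin list had 7 falls and 2 rises among 41 tested genes (median -0.04). The 2 that rose were the histone demethylase Kdm3a (0.91 ± 0.15) and the methyltransferase Ezh1 (0.61 ± 0.15). Of 45 tested splicing genes 5 fell and 1 rose (median -0.10), led by Rbm25 (-1.39 ± 0.16), Hnrnpl (-1.30 ± 0.18) and Son (-1.07 ± 0.15), with the kinase Clk1 the one that rose (0.58 ± 0.12). All 3 other probe sets of Son and both others of Rbm25 did not pass. The calls of both lists were lost with either normal array left out. On all 4 arrays 15 of the chromatin and 19 of the splicing genes passed an unadjusted p of 0.05 in limma. That was so for 1865 of all 8357 genes tested.

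Several of the remaining largest falls rested on 1 probe set. Synj2bp, an outer mitochondrial membrane protein, went from 9.02 and 9.22 to 6.70 and 7.29 (-2.13 ± 0.20), but its 3 other probe sets differed by -0.05 ± 0.13, -0.07 ± 0.15 and 0.25 ± 0.22. The ubiquitin ligase Ube3a went from 8.37 and 8.43 to 6.29 and 6.27 (-2.12 ± 0.14), and its other probe set differed by 0.04 ± 0.24. The splicing kinase Srpk2 went from 7.34 and 7.33 to 5.34 and 5.22 (-2.06 ± 0.16), and its 2 other probe sets differed by -0.07 ± 0.16 and 0.29 ± 0.22. Beta-actin (Actb) fell on its brightest probe set from 9.09 and 9.29 to 7.49 and 7.42 (-1.73 ± 0.14), while the other tested one differed by 0.52 ± 0.18 (adjusted p = 0.139). For these 4 genes the fall was a property of 1 probe set and not of every stretch of the transcript that the array reads. Mapt, the tau gene, fell on 2 of 3 probe sets, by -1.81 ± 0.22 and -1.16 ± 0.23. The kinase gene Taok3 (-2.51 ± 0.20) and the actin-binding Palld (-2.04 ± 0.31) had 1 tested probe set each.

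Some genes had probe sets that changed in opposite directions. Among 2841 genes with more than 1 tested probe set, 14 had at least 1 called higher and at least 1 called lower. Tardbp, the RNA-binding protein TDP-43, had the widest gap: 1 probe set rose by 1.29 ± 0.16, 1 fell by -0.88 ± 0.13, and 2 did not pass. Tnrc6a, a partner of Argonaute in microRNA silencing, had 2 rising (1.03 ± 0.17 and 0.67 ± 0.15) and 1 falling probe set (-0.80 ± 0.17) of 7. The imprinted gene Peg3 had 1 at 0.52 ± 0.12 and 1 at -1.31 ± 0.22, and Ibtk 1 at 0.68 ± 0.15 and 1 at -1.13 ± 0.20. Cnot6, Trim2, Wdr26 and Eif3c showed the same kind of split. Of 156 genes with more than 1 tested probe set and at least 1 call higher, 61.5% had all tested probe sets on the higher side of 0. Of the 378 such genes with at least 1 call lower, 47.1% had all on the lower side. The level of such a gene in these arrays depends on which probe set is read.

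**Figure D4:**
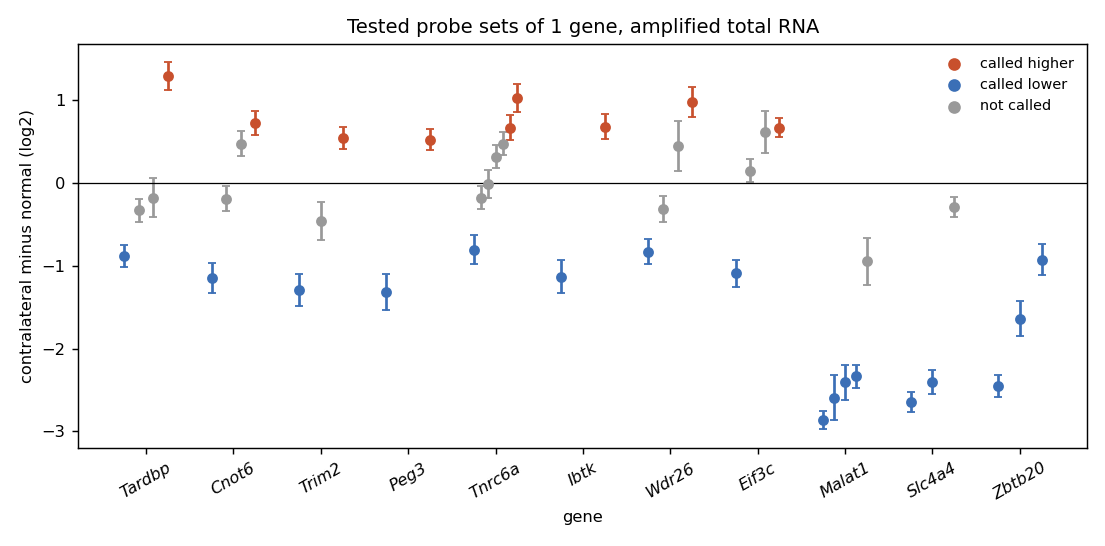
Contralateral minus normal difference (log2, with limma's standard error) of each tested probe set of 8 genes with calls in both directions and of Malat1, Slc4a4 and Zbtb20. Red points passed the test as higher, blue as lower, and grey did not pass; Tardbp spans -0.88 to 1.29, whereas every probe set of Malat1 and of Zbtb20 lies below 0.

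Most housekeeping lists stayed near or below the background of 3.29% higher and 2.91% lower. At an unadjusted p of 0.05 in limma 1865 of all 8357 genes tested passed. Of 45 tested ribosomal protein genes 0 passed in limma (1 at an unadjusted p of 0.05), with differences from -0.22 to 0.40. Of 37 proteasome genes 1 fell, and of 74 mitochondrial ribosome genes 2 rose. Collagens and laminins had 0 calls among 31 (5 at an unadjusted p of 0.05), cholesterol synthesis 0 among 16 (3) and the renin and vasoactive list 0 among 13 (3). The chaperones of the endoplasmic reticulum leaned downwards: 3 of 19 fell, Manf by -1.08 ± 0.16, Pdia4 by -0.88 ± 0.17 and Hsp90b1 by -0.48 ± 0.12, with a median of -0.22, while Hspa5 (BiP) differed by -0.11 ± 0.10. Heat shock genes split, with the small heat shock protein Hspb1 (0.73 ± 0.15) and Dnajb4 (1.00 ± 0.19) higher and the collagen chaperone Serpinh1 (-1.13 ± 0.21) and Hspe1 (-0.42 ± 0.10) lower, and Hspa1a (-0.22 ± 0.15) and Hspa1b (-0.11 ± 0.15) not passing. Of 15 clock genes 4 fell, Rora (-0.79 ± 0.15), Clock (-0.78 ± 0.16), Dbp (-0.62 ± 0.12) and Hlf (-0.62 ± 0.13), and the repressor Nfil3 rose (1.08 ± 0.20). Without normal replicate 1 or 2 limma called 0 members of the chaperone list (4 and 4 at an unadjusted p of 0.05), the heat shock list (4 and 4) and the clock list (5 and 5). With no filter on brightness 0 heat shock genes (5 unadjusted), 0 clock genes (5) and 0 NRF2 genes (5) passed. Among all 22626 probe sets 343 passed in that fit, and 3806 at an unadjusted p of 0.05 in limma. The hour of day at which the kidneys were taken is not given in the sources used here.

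Few markers of kidney cell types passed the test. Over all 8357 genes tested 3.29% rose and 2.91% fell, and 1865 passed an unadjusted p of 0.05 in limma. The 18 tested proximal tubule markers, led by Kap, summed to 38900 to 41000 in normal and 38100 to 38900 in contralateral kidney on the normalized linear scale, and 3 of them fell: Slc13a3, Gatm (-0.67 ± 0.13), an enzyme of creatine synthesis, and the endocytic receptor Lrp2 (-0.55 ± 0.12), calls that were 0 in limma without normal replicate 1 or 2 (4 and 3 at an unadjusted p of 0.05). Markers of the thick limb (0 of 7 called in limma, 0 at an unadjusted p of 0.05), distal tubule (0 of 6, 1), principal cells (0 of 7, 3), intercalated cells (0 of 4, 4), podocytes (0 of 7, 1), endothelium (0 of 11, 1) and stroma (0 of 10, 1) had no call. The 15 myeloid markers on the array, led by Csf1r, summed to 2750 and 2760 in normal and to 3280 and 3540 in contralateral kidney, and 0 of 13 tested passed (4 at an unadjusted p of 0.05). Adipocyte markers summed to 892 and 1160 against 1200 and 1390 (0 of 5 called, 2 unadjusted) and adrenal markers to 154 and 182 against 231 and 309 (0 of 3, 0 unadjusted). The sums were also higher on both contralateral arrays for neutrophil markers (131 and 181 against 184 and 188, with 2 of 10 bright enough to be tested), principal cells (2060 and 2450 against 2520 and 2590) and the distal tubule (6550 and 6630 against 6710 and 7800). They were lower on both for podocytes (1890 and 1940 against 1690 and 1880) and skeletal muscle (249 and 250 against 219 and 247, with 1 of 10 tested). The part of these sums in the rises and falls above was not tested. Of the defining neutrophil markers S100a8 and S100a9 were too dim to be tested, as were all 9 lymphocyte markers, among them Cd3e and Cd79a. Among 4 tested liver markers Apoc3 rose (0.81 ± 0.19), while Apoa1 and Ahsg were too dim to be tested.

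The 2 kidney groups were also measured as total RNA, on 4 other arrays; whether these came from the same mice is not stated. Of the 275 genes risen in amplified RNA 274 were tested in a joint fit of the 8 arrays, and 82.1% of them were higher in total RNA, against 44.7% of all 8114 genes. In total RNA 59 of the 274 passed as higher and 0 as lower, where 107 of all 8114 genes passed as higher (1.32%) and 28 as lower (0.345%). Of the 240 fallen genes that could be tested 54.2% were lower in total RNA, against 55.3% of all genes, and 9 passed as lower and 8 as higher. The risen genes were thus mostly higher in both preparations, and the fallen genes lay on both sides of 0 in total RNA. On the newly transcribed RNA arrays, 1 per kidney and so without a replicate check, 67.6% of the risen genes were higher (52.1% of all genes) and 81.9% of the fallen genes were lower (47.8% of all genes). These 2 arrays differed in quality. The Gapdh 3'/5' ratio was 12.7 in normal and 68.9 in contralateral kidney, and the median intensity was 70.3 and 18.6. The part of this in those shares was not tested.

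**Figure D5:**
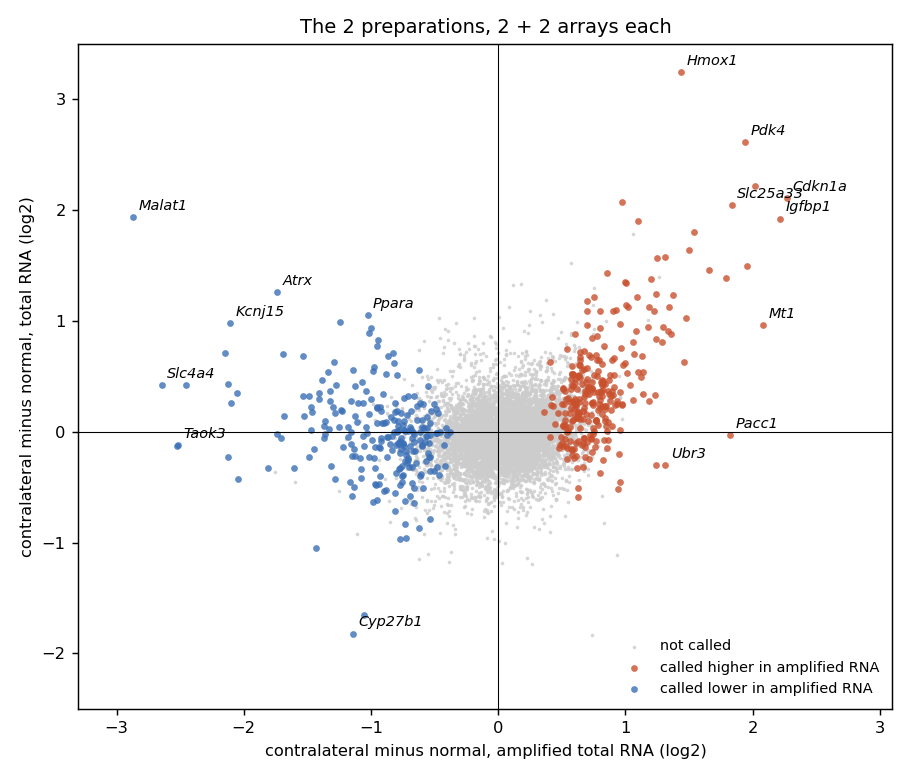
Contralateral minus normal difference in amplified total RNA (horizontal, log2) against the same difference in total RNA (vertical, log2), 1 point per gene, from 2 arrays per kidney in each preparation. Genes called higher in amplified RNA (red) lie mostly above 0 in total RNA (82.1%), whereas genes called lower (blue) lie on both sides, with Malat1 at -2.87 and 1.94.

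Cdkn1a, Igfbp1, Cebpd, Socs3 and Ddit4 also rose in total RNA, by 2.11 ± 0.14, 1.92 ± 0.12, 2.22 ± 0.18, 1.80 ± 0.20 and 1.57 ± 0.11 in that order. Genes that fell in both preparations were Cyp27b1 (-1.82 ± 0.22 in total RNA), the connexin Gjb2 (-1.43 ± 0.12 in amplified and -1.05 ± 0.15 in total RNA), Spsb4, Sap30, Lmo2, Rnf183, Timd2, Dbp and Gnpda1, all 9 of that pattern. The 8 that fell in amplified and rose in total RNA were Malat1, Kcnj15, Atrx, Ppara, Slc25a30, Kdm5a, Resf1 and Sdc4. Malat1 showed the widest contrast. In the joint fit it stood at 8.41 and 7.73 in normal and at 10.18 and 9.84 in contralateral total RNA, a rise of 1.94 ± 0.19 (adjusted p = 0.000494), while in amplified RNA it stood at 11.74 and 11.83 in normal and at 8.74 and 8.90 in contralateral kidney. Ppara went from 7.42 and 7.50 to 8.70 and 8.33 in total RNA (1.05 ± 0.16). The genes of these 2 patterns were listed after their values were seen.

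A test of the difference between the 2 effects, amplified minus total, passed for 592 probe sets (4.36%), 84 with a higher (0.619%) and 508 with a lower effect in amplified RNA (3.74%). By gene it passed for 199 of 8114 (2.45%), 60 with a higher (0.739%) and 139 with a lower effect in amplified RNA (1.71%), among them 112 of the 240 fallen genes (46.7%) and 38 of the 274 risen genes (13.9%). These 2 shares use the arrays that chose the genes and are a description. The largest differences were those of Malat1 (-4.90 ± 0.27, adjusted p = 3.58e-06), Slc4a4 (-3.09 ± 0.16), Atrx (-2.99 ± 0.36), Kcnj15 (-2.96 ± 0.20) and Zbtb20 (-2.79 ± 0.15). In total RNA Slc4a4 stood at 10.43 and 10.27 in normal and at 10.88 and 10.65 in contralateral kidney (0.42 ± 0.11, adjusted p = 0.107), and its other 2 probe sets passed there as higher, by 0.99 ± 0.17 (adjusted p = 0.0149) and 0.64 ± 0.13 (adjusted p = 0.0382). On the lone arrays of newly transcribed RNA Slc4a4 was lower in contralateral kidney by -3.46 and Malat1 by -2.49, which has no replicate check. The other Malat1 probe sets differed there by -1.30, -1.90, 0.68 and 0.75. Among the risen genes Mt1 rose more in amplified RNA (difference of effects 1.22 ± 0.14, adjusted p = 0.000642), and Hmox1 rose less (-1.89 ± 0.42, adjusted p = 0.0289). Hmox1 stood at 6.09 and 6.72 in normal and at 9.67 and 9.63 in contralateral total RNA. The rises of Pacc1 (1.75 ± 0.33) and of the ubiquitin ligase Ubr3 (1.54 ± 0.34) also differed between preparations, with total RNA differences of -0.03 ± 0.23 and -0.30 ± 0.24. The 18S signal relative to the array median, which separates the kidneys in amplified RNA, was 0.0436 to 0.111 on all 4 total RNA arrays, and its part in the differences between preparations was not tested. Leaving out normal amplified replicate 1 or 2, normal total replicate 2 or contralateral total replicate 1 lowered the 592 calls to 307, 271, 296 and 350.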

How the data were processed

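RNA of mouse kidneys was hybridised to 1-colour Affymetrix arrays; per the labels' protocols it was isolated on columns, checked on a Bioanalyzer, reverse-transcribed, linearly amplified and biotin-labelled by a T7-based strategy. The authors deposited 1 linear intensity per probe set and array; how probes were summarised or scaled, and which were detected, is not stated in the sources used here. Groups were taken from the titles, which call the arrays biological replicates; where no separate animals are stated, p-values measure only the spread between these arrays. The number of arrays (2 per group) limits the precision.

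The 64 control probe sets were set aside. Values were transformed as log2(intensity + 11.2), 11.2 being the 25th percentile of the 4 arrays, and quantile normalized over these 4 arrays. This scale understates changes of dim genes, and quantile normalization removes any shift common to all genes. Probe sets with a mean above the 40th percentile (13575) were fitted with limma 3.58.1 in R 4.3.3 (lmFit, eBayes with an intensity trend) with 2 residual degrees of freedom, and p-values were adjusted by Benjamini-Hochberg over all of them, with a threshold of 0.05. The difference between the effects in amplified and total RNA came from a fit of 8 arrays normalized together, with 1 mean per group (4 residual degrees of freedom). Values given for total RNA are from that fit, and those for newly transcribed RNA from 10 arrays normalized together.

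Genes were named from the annotation of the platform, in which 21071 of the 22626 probe sets have an entry: 20380 with 1 symbol, 691 with several, and 1555 are unnamed here. A gene is represented by its brightest probe set. Named were the 15 largest rises and falls that passed without overlap, up to 6 called members per list and direction, the 8 largest differences between effects of each sign and the 8 widest splits between probe sets. The members, gene lists and rules were chosen with earlier results of these data known. List counts stand beside those of all genes, with no set test, and genes can be in several lists. Promoter windows are from RefSeq (GRCm38.p6), and all 4 genes sought were found. The scripts were tested on simulated data. Alternatives tried were other offsets, normalizations, filters, variance models and arrays in the fit.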

Additional observations from a re-analysis of the deposited data

Results flagged for a closer look

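For 50 of the genes chosen by the naming rule or named beside it (Cebpb, Resf1 and Sdc4) the contralateral effect differed between amplified and total RNA by the test of the difference itself in limma (2 arrays per kidney and preparation, log2 difference of the effects, amplified minus total). The naming rule chose 140 genes, 16 of them for passing this test, and others for large changes on the same arrays. The count of 50 is therefore a description. Of all 8114 genes 199 passed (2.45%). The effect was lower in amplified RNA for Malat1 (-4.90), Slc4a4 (-3.09), Atrx (-2.99), Kcnj15 (-2.96), Zbtb20 (-2.79), Slc6a6 (-2.77), Ube3a (-2.44) and Sox6 (-2.42), which were named because their differences were the largest. It was also lower for Taok3 (-2.41), Srpk2 (-2.30), Nfix (-2.27), Synj2bp (-1.82), Actb (-1.65) and Mapt (-1.39), which had been named for their falls in amplified RNA, and for Hmox1 (-1.89), named for its rise. Among further members of the lists it was lower for Ppara (-2.08), Zeb2 (-1.93), Kdm5a (-1.88), Slc25a30 (-1.85), Rbm25 (-1.77), Zfp329 (-1.63), Son (-1.49), Hnrnpl (-1.44), Pbrm1 (-1.38), Rora (-1.28), Cebpb (-1.16), Tnfrsf12a (-1.15), Bptf (-1.11), Slc13a3 (-0.88), Arid2 (-0.88), Sdhc (-0.75) and Ndufa4 (-0.49). The same held for Wdr26 (-1.51), whose probe sets split, and for Resf1 (-1.67) and Sdc4 (-1.23), named after their values were seen. The effect was higher in amplified RNA for Nrgn (2.06), Pacc1 (1.75), Ubr3 (1.54), Pqlc3 (1.47), Rasl12 (1.40), Ampd2 (1.36), Rps27 (1.36) and Appbp2os (1.32), the largest of that sign, and for Mt1 (1.22), Hk1 (0.94), Cyp1b1 (0.89), Eif3c (0.80), Mrpl27 (0.76), Cnot6 (0.72) and Cox8a (0.61). Nrgn, a calmodulin-binding protein of neurons, differed by 0.94 ± 0.27 in amplified (adjusted p = 0.0875) and by -1.11 ± 0.26 in total RNA (adjusted p = 0.058), so neither effect passed by itself. Rps27 differed by 0.23 ± 0.23 in amplified RNA and by -1.14 ± 0.24 in total RNA (adjusted p = 0.0381). Groups of 2 arrays are too small for a test of single arrays that stand apart.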

How the results depend on the processing

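Against 992 calls, 343 probe sets passed with no filter, where 22626 were tested, and 1688 with the replicate number as a block. Same-numbered arrays did not deviate together (r = 0.0449 over 13575 probe sets). The labels do not say whether the replicate numbers pair the arrays, and this correlation cannot settle it. Leaving out arrays gave 41 to 1680 calls, with 64 and 41 without normal replicate 1 or 2 and 1488 and 1680 without contralateral replicate 1 or 2; a lone array is then assumed to vary like the other group. The other settings gave 669 to 1397 calls. For the difference between preparations (592 calls) leaving out an array gave 271 to 725 and the replicate block 615. Of 2217 values of named genes, 1739 kept direction and call, 478 kept the direction but lost the call, and 0 reversed. Of the 30 largest changes 16 kept their call in all alternatives that tested them, and 25 did in those that left out no array; Hmox1, Pdk4, Hp, Palld and Atrx did not. The medians of the circadian, transport, chromatin, splicing and tubule transcription factor lists lie near 0 and changed sign in at least 1 setting. Detection above background is unknown here, which limits statements on dim genes.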

Other observations

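Of 28 tested cytochrome P450 genes 6 rose in amplified RNA and 1, Cyp27b1, fell, where 3.29% of all genes tested rose and 2.91% fell. The array held 61 members of the family, and the others were too dim to be tested. The median difference of the 28 was 0.14 in amplified RNA, against 0.05 over all genes. In total RNA it was -0.00075, against -0.03 over all genes. Besides Cyp24a1, the risen members were Cyp1b1 (1.19 ± 0.13), Cyp27a1 (0.96 ± 0.13), which hydroxylates sterols in mitochondria, Cyp2d22 (0.93 ± 0.15), Cyp2d9 (0.78 ± 0.15) and Cyp4a31 (0.62 ± 0.15). Members of the Cyp2d and Cyp4a families have close copies, so their probe sets may not separate them. In total RNA Cyp1b1 differed by 0.27 ± 0.14, and its difference between preparations passed (0.89 ± 0.19, adjusted p = 0.0231). The calls of the family were lost with either normal array left out. On all 4 arrays 9 of 28 passed an unadjusted p of 0.05 in limma, where 1865 of all 8357 genes tested did.

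Solute carriers taken as a family stood near the background, with 8 of 183 tested members higher and 8 lower (4.37% each). Over all genes tested 3.29% rose and 2.91% fell. Outside the genes described above, Slc38a2, an amino acid transporter, rose by 0.97 ± 0.16, the folate carrier Slc19a1 by 0.74 ± 0.13 and the mitochondrial glutamate carrier Slc25a22 by 0.70 ± 0.17, while Slc22a4 fell by -0.75 ± 0.18 and Slc25a30 by -1.01 ± 0.16. Slc25a30 rose by 0.89 ± 0.17 in total RNA. Respiratory chain and ATP synthase subunits had 4 falls, Sdhc (-0.70 ± 0.13), Ndufb10 (-0.61 ± 0.12), Ndufa4 (-0.45 ± 0.09) and Ndufc2 (-0.41 ± 0.09), and 1 rise, Cox8a (0.50 ± 0.09), among 75 tested members with a median of 0.01. Without normal replicate 1 or 2 limma called 0 of these subunits (9 and 7 at an unadjusted p of 0.05), and the solute carriers had 1 and 2 rises and 3 and 1 falls.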
